A study of Mus musculus with 4 samples.

Results

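Secreted antagonists of Wnt signalling were read on Affymetrix 3' arrays of basal cells sorted from mouse tail epidermis. The set of 10 genes was given by name (Wif1, Sfrp1, Sfrp2, Sfrp4, Sfrp5, Frzb, Dkk1, Dkk2, Dkk3 and Sostdc1), with earlier results of these data known. It is covered by 19 of the 45037 non-control probe sets. Sfrp1 has 5 probe sets, 5 genes have 2 each and 4 genes have 1. No filter on low signal was applied, so all 10 genes and all 19 probe sets were tested.

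There were 2 arrays of the genotype K14CreER:SmoM2:Sox9cKO (called Sox9cKO here) and 2 of K14CreER:SmoM2 (called SmoM2). SmoM2 is a mutant Smoothened protein that signals without Hedgehog ligand, K14CreER is a tamoxifen-dependent Cre recombinase driven by the keratin 14 promoter of basal keratinocytes, and Sox9cKO is a conditional deletion of the transcription factor gene Sox9. All mice were injected with tamoxifen (2.5 mg) on 10 days in a row and killed 9 weeks from the first dose, and both genotypes expressed SmoM2, so no array shows tissue without the oncogene. The sorted cells carried integrin alpha 6 but not CD34, and are labelled basal interfollicular cells. The labels do not give the ages of the mice or how many contributed to an array, so p-values reflect only how far these arrays differed, which may be technical.

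Wnt ligands signal by binding Frizzled receptors together with the co-receptors Lrp5 and Lrp6, which stabilises beta-catenin and lets it act with Tcf and Lef factors on target genes. Secreted antagonists act outside the cell in 2 ways. Wif1, the Sfrp proteins and Frzb bind Wnt ligands, whereas Dkk1, Dkk2 and Sostdc1 bind the Lrp co-receptors. In skin, Wnt signalling starts hair follicle formation and hair growth, and Wif1, Sfrp1 and Dkk3 are known from resting follicle stem cells of the bulge.

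Array medians lay between 5.45 and 5.47 on the log2 scale. Sox9 had log2 signals of 6.75 and 5.70 in Sox9cKO arrays and 10.21 and 10.02 in SmoM2 arrays at 1 of its 3 probe sets (log2 change -3.89, SE 0.31, adjusted p = 0.00171 over all probe sets). At the other probe sets its changes were -0.75 (adjusted p = 0.148) and -0.41 (adjusted p = 0.309), and where the probes lie relative to the deleted part was not given in the sources used here. Each genotype had 1 array with Y-linked signal (6.74 to 9.48 for Eif2s3y, Kdm5d and Uty) and 1 without (3.23 to 3.62). The arrays with it were Sox9cKO replicate 1 and SmoM2 replicate 2. The range of 3.23 to 3.62 shows what these 3 probe sets read with no such transcript present. The basal keratin gene Krt14 read 13.15 and 13.30 in Sox9cKO arrays and 13.51 and 13.76 in SmoM2 arrays, and Itga6, the sorting marker, read 11.14 and 11.15 in Sox9cKO arrays and 11.42 and 11.77 in SmoM2 arrays. Cd34, which the sort selected against, read 3.95 and 3.75 in Sox9cKO arrays and 4.14 and 4.15 in SmoM2 arrays.

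The antagonists that fell in Sox9cKO were Wif1 and Sfrp1, which bind Wnt ligands, and Dkk3, a member of the Dickkopf family. Wif1 was 9.24-fold lower, Sfrp1 5.11-fold lower and Dkk3 2.55-fold lower in Sox9cKO than in SmoM2 arrays. The Sfrp1 value is from the probe set of largest change among its 5, and the others were 1.51- to 2.52-fold lower. Of the 10 genes, 3 were thus lower by limma at an adjusted p under 0.05, where 3.53% of all 18193 genes were. None was higher at that threshold (0 also at an unadjusted p under 0.05 and in every alternative fit), where 2.66% of all genes were. Lower at an unadjusted p under 0.05 were 5 of the 10 genes, a share not counted over all genes. At probe set level 7 of 19 were lower and 0 higher, and 2.34% of all probe sets were lower, but the 7 belong to 3 genes and are not independent. The median log2 change was -0.20 over the 10 genes and 0.02 over all genes. The 10 genes were chosen with earlier results of these data known, so these comparisons with all genes are not independent of the data. In these bulk samples, fewer cells of a type and less RNA per cell cannot be told apart.

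Both Sox9cKO arrays lay below both SmoM2 arrays for 5 of the 10 genes (Wif1, Sfrp1, Dkk3, Dkk2 and Sostdc1), as they did for 21.8% of all genes. Both lay above for 1 gene, Frzb, as they did for 26.0% of all genes, and the groups overlapped for the others. An exact permutation test of 1 gene with 2 arrays against 2 cannot give a p below 0.333, so each call depends on limma's pooling of variance over genes.

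**Figure D1:**
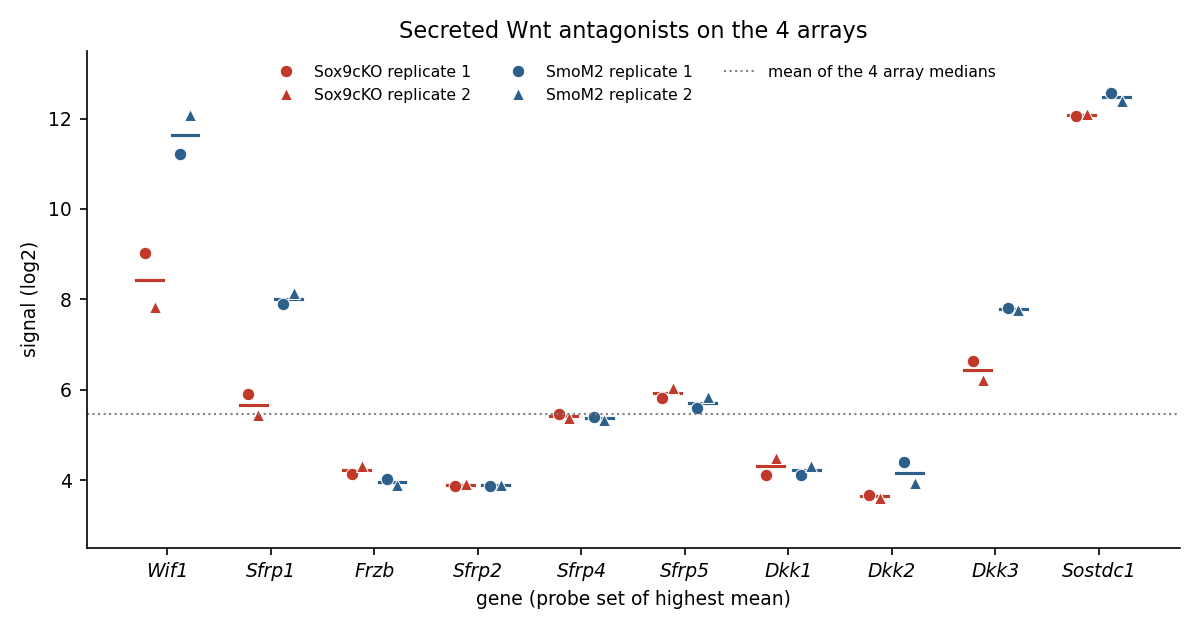
Log2 signal of the 10 antagonists on each array (vertical axis), at the probe set of highest mean; circles are replicate 1, triangles replicate 2, horizontal bars group means, and the dotted line the mean of the array medians. Wif1, Sfrp1 and Dkk3 show Sox9cKO arrays well below SmoM2 arrays, with Wif1 at 9.03 and 7.84 in Sox9cKO and 11.21 and 12.07 in SmoM2, while Sfrp2 and Sfrp4 lie at nearly the same signal in both.

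Wif1 (Wnt inhibitory factor 1) had log2 signals of 9.03 and 7.84 in Sox9cKO arrays, against 11.21 and 12.07 in SmoM2 arrays. The genotypes did not overlap, and of the 10 genes Wif1 had the largest spread between replicates, with means of 8.43 ± 0.84 in Sox9cKO and 11.64 ± 0.61 in SmoM2 (SD, n = 2 each). The log2 change was -3.21 (SE 0.41, 95% interval -4.17 to -2.25, adjusted p = 0.00485). Under a variance prior that follows intensity and is robust to variable genes, the adjusted p was 0.0675 at the same change, and leaving out 1 array at a time gave changes of -3.80 to -2.61 with adjusted p of 0.00106 to 0.0453. The single Wif1 probe set means that no second probe set could be read beside it.

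The bases before the Wif1 start are shown because it changed most, beside those of Dkk1, an antagonist gene known as a direct beta-catenin target, which read low on all 4 arrays. The sequences are from RefSeq (mouse build GRCm38.p6), 250 bases upstream of the annotated start, 5′ to 3′ on the gene's strand, Wif1 at chr10:121033754-121034003 (plus strand) and Dkk1 at chr19:30549497-30549746 (minus strand). Capitals mark CAAAG or its reverse complement CTTTG, the core letters that Tcf/Lef and Sox recognition sequences share. CAATG, the other form of the Sox core, was also searched on both strands.
Wif1: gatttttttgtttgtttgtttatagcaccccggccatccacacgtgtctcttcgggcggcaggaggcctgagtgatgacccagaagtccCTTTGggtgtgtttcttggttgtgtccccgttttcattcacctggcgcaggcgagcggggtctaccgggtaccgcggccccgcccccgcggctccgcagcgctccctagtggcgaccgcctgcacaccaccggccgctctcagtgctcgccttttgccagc
Dkk1: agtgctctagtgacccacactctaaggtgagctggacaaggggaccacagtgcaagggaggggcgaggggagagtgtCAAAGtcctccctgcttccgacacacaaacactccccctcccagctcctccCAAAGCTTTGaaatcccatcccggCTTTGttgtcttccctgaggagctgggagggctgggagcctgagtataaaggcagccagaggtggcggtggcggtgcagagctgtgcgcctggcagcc

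CAAAG occurred 1 time in the Wif1 window and 4 times in the Dkk1 window, and in 48.6% of 32851 mouse windows of that length. CAATG occurred in neither, and in 32.6% of all windows. Windows were matched for 6 of the 10 genes, of which 4 held CAAAG (Wif1, Dkk1, Dkk2 and Frzb) and 0 held CAATG. The matches do not overlap each other, and they describe letters in these windows and not binding.

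Sfrp1, a secreted protein with a Frizzled-type cysteine-rich domain that binds Wnt ligands, had log2 signals of 5.89 and 5.43 in Sox9cKO arrays, against 7.90 and 8.14 in SmoM2 arrays, at its brightest probe set (1448395_at). Its means were 5.66 ± 0.33 in Sox9cKO and 8.02 ± 0.17 in SmoM2 (SD, n = 2 each), and the genotypes did not overlap (log2 change -2.35, SE 0.19, 95% interval -2.80 to -1.91, adjusted p = 0.000831). This call held in every alternative fit, with adjusted p of 7.31e-06 to 0.0135.

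All 5 Sfrp1 probe sets read lower in both Sox9cKO arrays than in both SmoM2 arrays, by differing amounts. Probe set 1460187_at read 3.66 and 3.37 in Sox9cKO arrays and 4.85 and 4.86 in SmoM2 arrays (adjusted p = 0.00566 over all probe sets). In Sox9cKO 1 array lay inside the range that absent Y-linked transcripts gave and 1 just above it. The fitted change of -1.34 may therefore understate the fall. With arrays below 3.62 set to that value, the group means differed by 2.32-fold. That floor comes from other probe sets and the spread between arrays was left out, so 2.32-fold is not a minimum. Probe set 1428136_at read 6.21 and 5.76 in Sox9cKO arrays and 6.99 and 7.11 in SmoM2 arrays (-1.07, adjusted p = 0.0262). Probe set 1416594_at read 5.84 and 6.00 in Sox9cKO arrays and 6.80 and 7.06 in SmoM2 arrays (-1.01, adjusted p = 0.0177). Probe set 1438620_x_at, of the class whose probes may also bind other transcripts, read 6.30 and 6.32 in Sox9cKO arrays and 7.06 and 6.76 in SmoM2 arrays, the smallest change of the 5 (-0.60, adjusted p = 0.108).

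With the mean of the 5 probe sets in place of the brightest, Sfrp1 changed by -1.27 (adjusted p = 0.00369). The call at 1416594_at was lost without Sox9cKO replicate 1 (adjusted p = 0.0905), Sox9cKO replicate 2 (0.0530) or SmoM2 replicate 2 (0.0858). That at 1428136_at was lost without Sox9cKO replicate 2 (adjusted p = 0.0953), SmoM2 replicate 1 (0.0838) or SmoM2 replicate 2 (0.115).

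**Figure D2:**
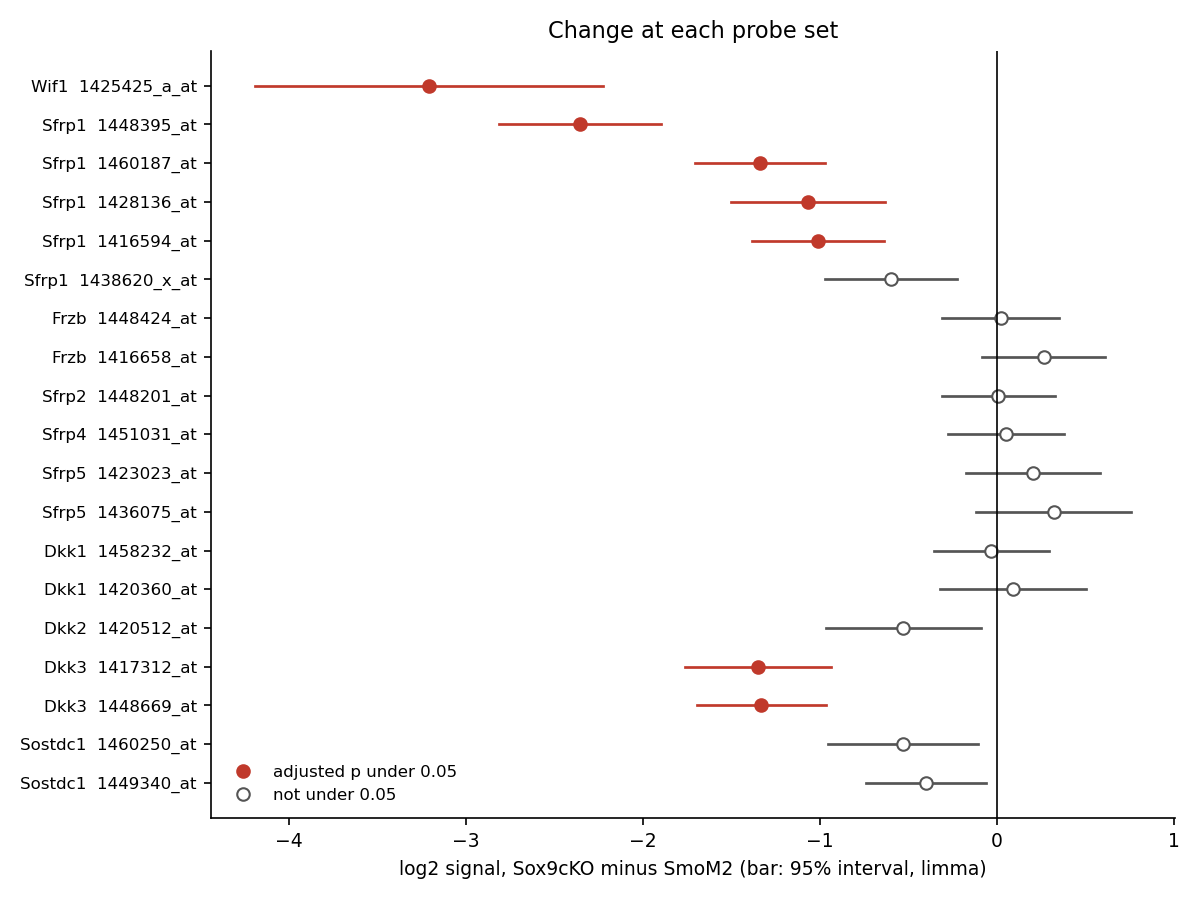
Log2 change (Sox9cKO minus SmoM2, horizontal axis) at each of the 19 probe sets, with 95% intervals from limma; filled red points had an adjusted p under 0.05 over all probe sets and open points did not. The 7 filled points are those of Wif1, of 4 Sfrp1 probe sets, from -2.35 to -1.01, and of both Dkk3 probe sets; the Sfrp1 point at -1.34 (1460187_at) has 1 Sox9cKO array at the level of absent transcripts.

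The remaining ligand-binding genes did not pass the test. Sfrp2, known from dermal fibroblasts and the dermal papilla, read 3.87 and 3.91 in Sox9cKO arrays and 3.87 and 3.89 in SmoM2 arrays, a log2 change of 0.01 (95% interval -0.30 to 0.32). Its signal was near the low end of the arrays in both genotypes. Sfrp4 read 5.46 and 5.37 in Sox9cKO arrays and 5.40 and 5.33 in SmoM2 arrays (0.05, 95% interval -0.26 to 0.37). Neither interval reaches the change of Wif1, Sfrp1 or Dkk3, although a dim probe set may understate a change.

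Sfrp5 read 5.81 and 6.03 in Sox9cKO arrays and 5.60 and 5.83 in SmoM2 arrays (log2 change 0.21, 95% interval -0.16 to 0.57, adjusted p = 0.592), and its second probe set changed by 0.32 (adjusted p = 0.512). Frzb, first described in cartilage, read 4.14 and 4.31 in Sox9cKO arrays and 4.03 and 3.89 in SmoM2 arrays (0.27, 95% interval -0.07 to 0.60, adjusted p = 0.407). Its other probe set read 3.48 and 3.37 in Sox9cKO arrays and 3.45 and 3.36 in SmoM2 arrays, inside the range that absent Y-linked transcripts gave. Sfrp5 thus overlapped between genotypes, and Frzb was higher in both Sox9cKO arrays at 1 of its 2 probe sets by less than the test could call.

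Among the Dickkopf genes, Dkk3 fell. Dkk3 is a divergent member of the family whose action on Wnt signalling is less settled than that of Dkk1. It had log2 signals of 6.64 and 6.22 in Sox9cKO arrays, against 7.80 and 7.76 in SmoM2 arrays, with means of 6.43 ± 0.30 in Sox9cKO and 7.78 ± 0.03 in SmoM2 (SD, n = 2 each; log2 change -1.35, SE 0.17, 95% interval -1.75 to -0.95, adjusted p = 0.00473). Its other probe set read 6.43 and 6.42 in Sox9cKO arrays and 7.62 and 7.89 in SmoM2 arrays, a change of -1.33 (adjusted p = 0.00558 over all probe sets). The 2 probe sets therefore gave nearly the same change. The call held in every alternative fit, with changes of -1.56 to -1.14 and adjusted p up to 0.0454 when 1 array was left out.

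Dkk1, which binds Lrp5 and Lrp6 and blocks beta-catenin signalling, read 4.12 and 4.49 in Sox9cKO arrays and 4.12 and 4.31 in SmoM2 arrays (log2 change 0.09, 95% interval -0.31 to 0.49, adjusted p = 0.852). Its other probe set stayed between 3.25 and 3.35 on all 4 arrays, inside the range that absent Y-linked transcripts gave, so no change in Dkk1 was detectable with these probes. Dkk2, which can block or weakly activate the pathway depending on the co-receptors present, read 3.67 and 3.61 in Sox9cKO arrays and 4.40 and 3.93 in SmoM2 arrays. The genotypes did not overlap for Dkk2, whose signal in Sox9cKO was at the level of absent Y-linked transcripts in 1 array and just above it in the other, but its change of -0.53 (95% interval -0.95 to -0.10) did not pass after adjustment (adjusted p = 0.176), and it was -0.29 without SmoM2 replicate 1.

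Sostdc1 (also called Wise or ectodin), which binds Lrp co-receptors and also BMP ligands, read 12.06 and 12.09 in Sox9cKO arrays and 12.56 and 12.39 in SmoM2 arrays. Its other probe set read 10.68 and 10.86 in Sox9cKO arrays and 11.51 and 11.10 in SmoM2 arrays. Both probe sets were lower in both Sox9cKO arrays, by less than the test could call, at log2 changes of -0.40 (95% interval -0.72 to -0.07, adjusted p = 0.178 among genes) and -0.53 (adjusted p = 0.212 among probe sets). Signals of different genes are not ranked here, since probes of different sequence differ in brightness.

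**Figure D3:**
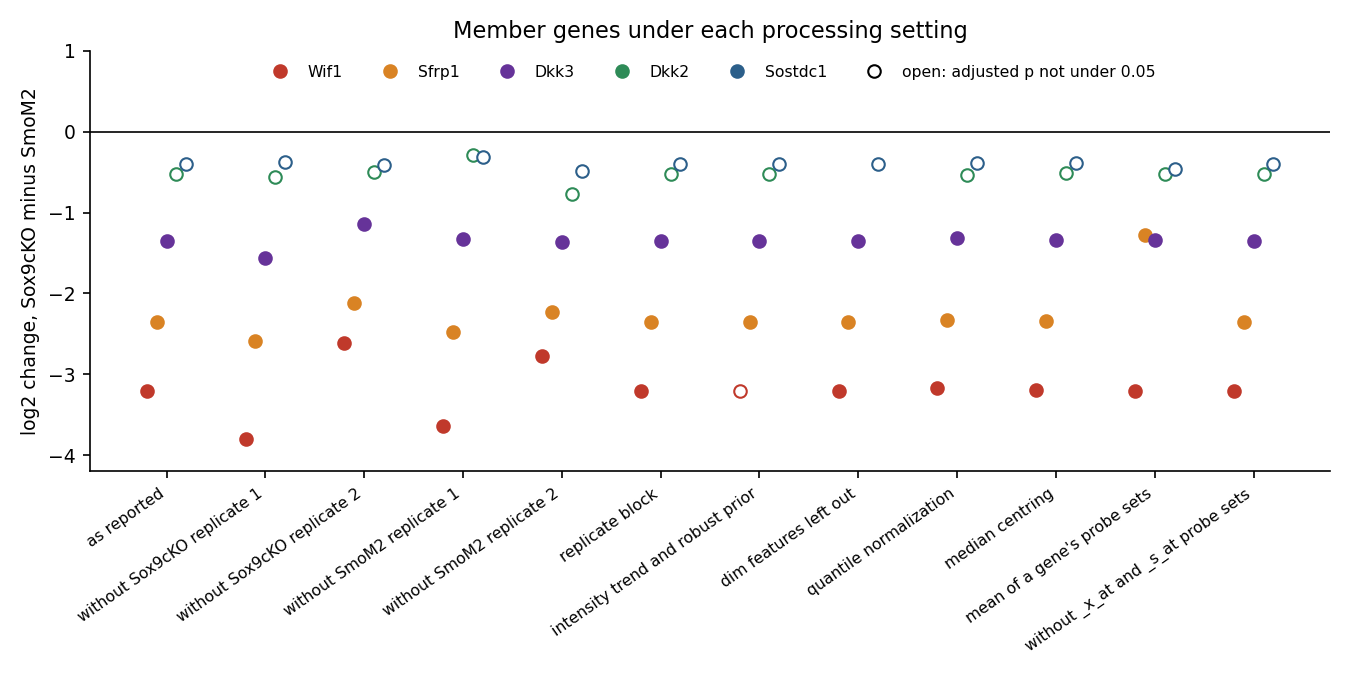
Log2 change (Sox9cKO minus SmoM2, vertical axis) of Wif1, Sfrp1, Dkk3, Dkk2 and Sostdc1 as reported and under each alternative setting (horizontal axis); filled points had an adjusted p under 0.05. Sfrp1 and Dkk3 are filled throughout, Wif1 is open only with the trended, robust prior (adjusted p = 0.0675), and Dkk2 and Sostdc1 are open throughout; Dkk2 has no point where dim features were left out.

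Profiles over the 4 arrays, centred on each gene's mean, were compared with those of all other genes by Euclidean distance in log2 units. The 3 named genes nearest to Wif1 were Myo5b, a motor protein gene (distance 0.51), Pla2g7, which encodes platelet-activating factor acetylhydrolase (0.53), and the serine protease gene Prss12 (0.56). Nearest to Sfrp1 were Ldlrad3, an LDL receptor class A domain gene (0.12), Lyve1, a hyaluronan receptor gene known from lymphatic endothelium (0.17), and Spon2, which encodes a matrix protein (0.26). Nearest to Dkk3 were the adhesion receptor gene Adgre5 (0.10), the troponin gene Tnnt2 (0.12) and Tmigd1 (0.13). With 4 arrays in 2 groups, such likeness reflects mainly the size of the difference between genotypes.

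Beside the 10 antagonists, 89 of 91 listed genes of the Wnt pathway were measured, of which 11 were higher (12.4%) and 8 lower (8.99%) in Sox9cKO, with a median log2 change of 0.04. Over all genes 2.66% were higher and 3.53% lower, which are the shares to set beside each list below. The counts of higher genes were 7 and 12 without Sox9cKO replicate 1 or 2 and 4 and 5 without SmoM2 replicate 1 or 2, and those of lower genes were 8, 6, 5 and 4 in the same order. Of the 19 called genes, 7 were called whichever array was left out. These were Wnt11, Fzd10 and Ror1, which were higher, and Fzd7, Ndp, Tle1 and Bambi, which were lower.

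None of 12 measured genes among other Wnt inhibitors and Dkk co-receptors was called by limma, and their median change was -0.11. Of these, 1 was higher (Rnf43) and 2 were lower at an unadjusted p under 0.05. The smallest p was that of Dkkl1, a Dkk-like gene known from testis, with 4.68 and 4.82 in Sox9cKO arrays and 5.27 and 5.24 in SmoM2 arrays (log2 change -0.51, adjusted p = 0.0831). A difference between these genes and the 10 antagonists was not tested.

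Of 19 measured Wnt ligand genes 3 rose and none was called lower by limma (1 was lower at an unadjusted p under 0.05). Wnt11, which acts mostly through beta-catenin-independent signalling, had log2 signals of 8.14 and 7.46 in Sox9cKO arrays, against 5.91 and 5.83 in SmoM2 arrays (log2 change 1.93, SE 0.22, adjusted p = 0.00319). Wnt3, a ligand of the beta-catenin pathway, read 4.37 and 5.32 in Sox9cKO arrays and 3.28 and 3.29 in SmoM2 arrays (adjusted p = 0.0212). The probe set read for it is of the class whose probes may also bind other transcripts. The fit without that class was not read for this gene. In SmoM2 arrays Wnt3 was no brighter than absent Y-linked transcripts. Its level in SmoM2 is thus only bounded. A floor of 3.62, the highest signal of an absent Y-linked transcript, was borrowed from other probe sets. With the SmoM2 arrays set to that floor, Wnt3 was 2.33-fold higher in Sox9cKO by group means, which leaves out the spread between arrays and is not a minimum. Its adjusted p was 0.126 and 0.129 without SmoM2 replicate 1 or 2. Wnt6 changed by 0.61 (adjusted p = 0.0498), which was lost without Sox9cKO replicate 1 or 2 (adjusted p = 0.0864 and 0.208), without SmoM2 replicate 1 or 2 (0.152 and 0.215) and with the other prior (0.0676).

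Among 7 genes of Wnt release and Wnt agonists, Porcn rose and Ndp fell. Porcn, the acyltransferase that Wnt ligands need for release, read 8.77 and 9.03 in Sox9cKO arrays and 7.70 and 7.95 in SmoM2 arrays (log2 change 1.07, adjusted p = 0.00931, or 0.0715 without SmoM2 replicate 1). Ndp (norrin), a ligand of Fzd4 that is not a Wnt, read 4.51 and 4.38 in Sox9cKO arrays and 5.56 and 5.82 in SmoM2 arrays (-1.24, adjusted p = 0.00398).

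Receptor genes moved in both directions, with 6 of 20 higher and 2 lower. Fzd10 read 7.64 and 7.30 in Sox9cKO arrays and 6.10 and 6.07 in SmoM2 arrays (log2 change 1.39, SE 0.16, adjusted p = 0.00315). Ror1, a receptor of beta-catenin-independent Wnt signalling, read 7.09 and 7.55 in Sox9cKO arrays and 5.44 and 5.95 in SmoM2 arrays (1.63, adjusted p = 0.00653), but averaging its probe sets gave a change of 0.59 (adjusted p = 0.0953). Fzd7 read 9.47 and 9.45 in Sox9cKO arrays and 10.50 and 10.55 in SmoM2 arrays (-1.07, adjusted p = 0.00412). Frizzled genes were thus found on both sides, with Fzd7 lower and Fzd10 higher and no overlap between genotypes for either.

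Lgr4, an R-spondin receptor gene, changed by 0.79 (adjusted p = 0.0180), Fzd3 by 0.75 (0.0229), Fzd5 by 1.72 (0.0298), Ror2 by 1.52 (0.0301) and the Wnt co-receptor gene Lrp5 by -0.65 (0.0425). Leaving out single arrays ended each of these calls. Without Sox9cKO replicate 1 the adjusted p was 0.0634 for Lgr4, 0.101 for Fzd3, 0.0839 for Ror2 and 0.171 for Lrp5. Without Sox9cKO replicate 2 it was 0.0651 for Lgr4 and 0.0793 for Lrp5. Without SmoM2 replicate 1 it was 0.110 for Lgr4, 0.117 for Fzd3, 0.140 for Fzd5, 0.161 for Ror2 and 0.199 for Lrp5, and without SmoM2 replicate 2 it was 0.0642 for Lgr4, 0.114 for Fzd3, 0.174 for Fzd5 and 0.128 for Lrp5. Averaging all probe sets of each gene, Fzd3 changed by 0.31 (adjusted p = 0.450), Fzd5 by 1.20 (0.163) and Lgr4 by 0.49 (0.0823).

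Of 22 measured intracellular genes 3 fell and none was called higher by limma (3 were higher at an unadjusted p under 0.05). Tle1, a Groucho-type co-repressor that binds Tcf factors, read 8.24 and 8.05 in Sox9cKO arrays and 9.87 and 9.74 in SmoM2 arrays (log2 change -1.66, SE 0.14, adjusted p = 0.00102). Tcf7l2 and Tcf7l1, which encode DNA-binding partners of beta-catenin, changed by -1.20 (adjusted p = 0.00689) and -1.12 (adjusted p = 0.00752). Without SmoM2 replicate 2 these became 0.0649 for Tcf7l2 and 0.0537 for Tcf7l1, and without SmoM2 replicate 1 Tcf7l1 was at 0.0625. Lef1, a factor of hair matrix and placode cells, read 7.02 and 6.26 in Sox9cKO arrays and 5.71 and 5.74 in SmoM2 arrays (0.91, adjusted p = 0.0765). Leaving out 1 array gave changes of 0.54 to 1.29 for Lef1.

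Of 15 measured beta-catenin target and feedback genes 1 rose and 2 fell, with a median change of 0.07. Axin2, the most widely used target, read 7.32 and 7.36 in Sox9cKO arrays and 7.03 and 6.71 in SmoM2 arrays, and its change of 0.47 did not pass (adjusted p = 0.156). Tnfrsf19 (Troy) read 8.19 and 8.98 in Sox9cKO arrays and 7.00 and 6.63 in SmoM2 arrays (1.77, adjusted p = 0.00933, or 0.0863 without SmoM2 replicate 2). Bambi, a TGF-beta family pseudoreceptor, read 7.01 and 6.83 in Sox9cKO arrays and 8.04 and 8.29 in SmoM2 arrays (-1.24, adjusted p = 0.00437). Myc changed by -0.61 (adjusted p = 0.0424), which was lost without any 1 array (adjusted p of 0.126 to 0.188).

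**Figure D4:**
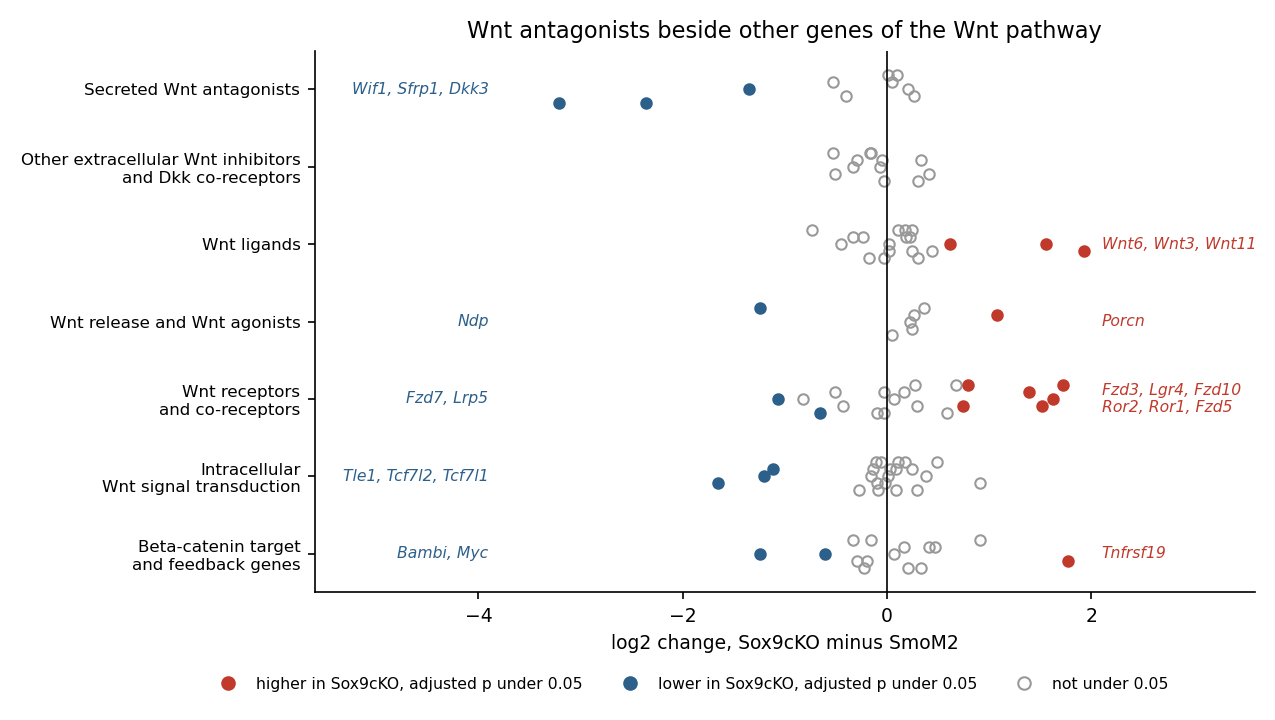
Log2 change (Sox9cKO minus SmoM2, horizontal axis) of the 10 antagonists and of the genes in each Wnt pathway list (rows; a gene may stand in 2 rows, and points are spread vertically for legibility). Red points were higher and blue points lower at an adjusted p under 0.05, and their names are printed beside them; 3 antagonists are blue and 0 red, while the receptor row has 6 red and 2 blue. Wnt3 is drawn at its fitted change, although SmoM2 arrays give only a bound for it.

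Markers of hair follicle and gland cells also differed between the genotypes. Of 11 hair follicle bulge and germ markers 4 were lower and 1 higher, and leaving out SmoM2 replicate 1 left 1 lower gene, leaving out SmoM2 replicate 2 left 2. The transcription factor gene Foxc1 read 5.27 and 4.38 in Sox9cKO arrays and 8.53 and 8.44 in SmoM2 arrays (log2 change -3.66, adjusted p = 0.000583). The others were Tbx1 at -1.03 (adjusted p = 0.00615, or 0.0508 without SmoM2 replicate 1), Nfatc1 at -1.04 (0.0344), Runx1 at -1.09 (0.0430) and Lhx2, which was higher at 0.79 (0.0238). Nfatc1 and Lhx2 were lost without Sox9cKO replicate 1 (adjusted p = 0.0884 and 0.102), SmoM2 replicate 1 (0.114 and 0.133) or SmoM2 replicate 2 (0.195 and 0.103). Runx1 was lost without Sox9cKO replicate 2 (adjusted p = 0.0848), SmoM2 replicate 1 (0.215) or SmoM2 replicate 2 (0.163). The list's mean log2 signal was 8.37 and 8.20 in Sox9cKO arrays and 8.81 and 8.90 in SmoM2 arrays, and its part in the changes of Wif1, Sfrp1 and Dkk3 was not tested.

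Of 9 measured sebocyte markers 2 were lower, the lipid droplet genes Cidea (-2.29, adjusted p = 0.00174) and Plin2 (-1.18, adjusted p = 0.00813). Without SmoM2 replicate 2 the count was 6, and 6 were also lower at an unadjusted p under 0.05 with all arrays, at a median log2 change of -1.09 over the list. The list averaged 6.86 and 6.64 in Sox9cKO arrays and 8.16 and 7.24 in SmoM2 arrays. Of 9 basal keratinocyte markers 1 was lower (Lamb3, a laminin gene, -1.25, adjusted p = 0.00949, or 0.0704 without SmoM2 replicate 2). At an unadjusted p under 0.05, 6 of the 9 were lower, and the list's median change was -0.45. The share of all genes under that unadjusted threshold was not counted, here or for the other lists. The count called lower was 2 without Sox9cKO replicate 2 or SmoM2 replicate 1, and 0 without SmoM2 replicate 2. The list averaged 10.82 and 11.04 in Sox9cKO arrays and 11.26 and 11.63 in SmoM2 arrays, lower in both Sox9cKO arrays. Of 18 measured fibroblast markers 1 was higher, the proteoglycan gene Dcn (3.66, adjusted p = 0.000445), and 1 was called lower without Sox9cKO replicate 1. At an unadjusted p under 0.05, 2 were higher and 2 lower, and the list averaged 5.92 and 6.04 in Sox9cKO arrays and 5.79 and 5.85 in SmoM2 arrays. The part of these lists in the changes of the antagonists was not tested either.

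Of 9 measured immune cell markers 1 was higher, Thy1 (1.99, adjusted p = 0.000831; 3 were higher at an unadjusted p under 0.05), with list means of 5.01 and 5.12 in Sox9cKO arrays and 4.75 and 4.48 in SmoM2 arrays. None of 9 melanocyte markers was called by limma (at an unadjusted p under 0.05, 1 was higher). The melanin synthesis gene Dct came nearest, at 0.59 (adjusted p = 0.163). Leaving out 1 array gave changes of 0.31 to 0.88 for Dct. None of 9 endothelial and mural cell markers was called (at an unadjusted p under 0.05, 1 was lower), and the smooth muscle actin gene Acta2 came nearest, at -0.57 (adjusted p = 0.131). These lists averaged 5.89 and 6.14 (melanocyte) and 4.89 and 4.96 (endothelial and mural) in Sox9cKO arrays, and 5.86 and 5.68 and 5.11 and 5.01 in SmoM2 arrays.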

How the data were processed

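Per the labels' protocols, tail epidermis was dissociated with trypsin, sorted cells were lysed for total RNA, and 100 ng per sample was amplified and biotin-labelled for Affymetrix 3' arrays. The authors deposited 1 log2 signal per probe set and array, which was used unchanged. Their normalization was not given in the sources used here, beyond R 2.14.0 in the submitters' processing notes. The 4 arrays had nearly equal medians, so a shift common to most genes cannot be detected. The precision is limited by the number of arrays.

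Of 45101 probe sets, 64 controls were left out. In the platform annotation 34945 had 1 gene symbol and 932 had several, and 9160 are unnamed here. The brightest probe set by mean over all arrays stood for a gene (18193 genes). limma 3.58.1 in R 4.3.3 (lmFit, eBayes, no covariate, two-sided) was fitted over all genes and, separately, over all 45037 probe sets, with Benjamini-Hochberg adjustment and a threshold of 0.05. The procedure was run on simulated data with normal noise drawn from the fitted variance prior. Such data meet limma's assumptions and so cannot check them. The members, the lists, the motifs and the rules for naming genes were chosen with earlier results of these data known. Named are all members, up to 4 called genes of each list by smallest p, further called Wnt pathway genes, Axin2 and Lef1, and the 3 genes of most similar profile to each called member. The sort and lineage markers Krt14, Itga6 and Cd34, Sox9 and Y-linked genes were read as checks, and Runx1 was named after its value was seen. Alternatives were leaving out each array, a replicate block, another prior, a filter on dim features, quantile normalization, median centring and other probe set rules.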

Additional observations from a re-analysis of the deposited data

How the results depend on the processing

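The calls of Sfrp1 and Dkk3 held in all 11 alternatives, and that of Wif1 in 10 of 11: with an intensity trend and robust prior Wif1 kept its change of -3.21 but had an adjusted p of 0.0675. The count of antagonists called lower was 3 when any 1 array was left out. A genotype's lone array is then assumed to vary like the other genotype. Leaving out 1 array gave changes of -0.0125 to 0.0305 for Sfrp2 (probe set 1448201_at), -0.0917 to 0.28 for Dkk1 (1420360_at), -0.0786 to 0.0178 for Dkk1 at 1458232_at and -0.0302 to 0.0751 for Frzb at 1448424_at, none of them called. The probe set 1458232_at was at 0.0020 after quantile normalization. Over all genes, leaving out 1 array gave 199 to 404 higher and 335 to 502 lower calls, against 484 and 642 with all arrays, and over the Wnt pathway lists 4 to 12 higher and 4 to 8 lower. Averaging the probe sets of each gene, 7 pathway genes were higher. The genotypes share replicate numbers, but nothing in the labels says that a number marks a shared litter or day. Y-linked signal was present in Sox9cKO replicate 1 and SmoM2 replicate 2, so each number joins an array with it and an array without it. The difference between replicates 1 and 2 correlated weakly between genotypes across probe sets (r = 0.121). With the number as a replicate block 879 genes were higher and 1040 lower, 6 sebocyte, 3 basal keratinocyte, 2 fibroblast and 1 endothelial and mural marker were lower (2, 1, 0 and 0 without it) and 2 immune markers higher (1 without it), the antagonists called were still 3, Lef1 (adjusted p = 0.00828), Acta2 (0.0301) and the Sfrp1 probe set 1438620_x_at (0.0455) passed, and no call of an antagonist was lost. Leaving out dim features removed 6 of the antagonists from the fit. Signal near that of absent transcripts limits what can be said of Dkk1, Dkk2, Sfrp2 and Frzb.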
